A study of Mus musculus with 6 samples.

Results

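The genes described here are 10 genes of major histocompatibility complex (MHC) class I antigen presentation in mouse trigeminal ganglion, taken by symbol from a table of 17524 genes: H2-K1, H2-D1, B2m, Tap1, Tap2, Tapbp, Psmb8, Psmb9, Psmb10 and Nlrc5. Bulk RNA sequencing was done on 6 libraries of polyadenylated RNA, 3 labelled vehicle and 3 labelled NTG, all from mice with the genotype WT. The dose, the time after treatment, the strain, the age, the sex and the full name of NTG were not given in the sources used here. No label states that libraries of a group came from separate animals. The p-values therefore describe only how these libraries vary, which may be technical. All 10 genes were measured in every library, with at least 71 reads in each, and all 10 passed the filter on low values.

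MHC class I molecules show short peptides from a cell's own proteins to CD8 T cells. Proteasomes cut the proteins, and in cells exposed to interferon the catalytic subunits encoded by Psmb8, Psmb9 and Psmb10 replace the constitutive ones. The transporter made of Tap1 and Tap2 carries peptides into the endoplasmic reticulum, where tapasin (Tapbp) helps to load them onto a heavy chain (H2-K1 or H2-D1) paired with the light chain beta-2-microglobulin (B2m). Nlrc5 is a transactivator of class I genes, and nearly every gene of the pathway is inducible by interferon. Neurons are known for low class I expression at rest.

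Of the 10 genes, 7 lie within 1.35 Mb of chromosome 17, at chr17:33919478-35267497 on GRCm38. These are Tapbp (chr17:33919478-33929290, plus strand), H2-K1 (chr17:33996012-34000619, minus), Psmb9 (chr17:34182030-34187330, minus), Tap1 (chr17:34187556-34197225, plus), Psmb8 (chr17:34198195-34201454, plus), Tap2 (chr17:34204479-34216321, plus) and H2-D1 (chr17:35263094-35267497, plus). Psmb9 and Tap1 are transcribed away from each other with 225 bases between them, Psmb8 follows Tap1 after 969 bases, and Tap2 follows Psmb8 after 3024 bases. Outside the complex lie B2m (chr2:122147687-122153082, plus), Nlrc5 (chr8:94434335-94527272, plus) and Psmb10 (chr8:105935728-105938392, minus).

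The region upstream of the heavy and light chain genes holds a compact pair of motifs through which class I genes are known to respond to interferon and to NF-kB. It is shown because the heavy chains encoded by H2-K1 and H2-D1 each pair with the light chain encoded by B2m. The sequences are from RefSeq on GRCm38.p6, read 5′ to 3′ on the strand of the gene, with the motif matches in capitals. The heavy chain stretches are at chr17:34000430-34000458 on the minus strand for H2-K1 and chr17:35262923-35262951 on the plus strand for H2-D1. Upstream here means before the start of transcription in RefSeq. For H2-K1 that start is chr17:34000347, which is inside the gene interval given above, so the H2-K1 stretch also lies inside that interval. The B2m stretch, at chr2:122147437-122147676 on the plus strand, runs from 250 to 11 bases before the start of transcription.
H2-K1: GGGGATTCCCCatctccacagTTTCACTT
H2-D1: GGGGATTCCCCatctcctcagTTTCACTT
B2m: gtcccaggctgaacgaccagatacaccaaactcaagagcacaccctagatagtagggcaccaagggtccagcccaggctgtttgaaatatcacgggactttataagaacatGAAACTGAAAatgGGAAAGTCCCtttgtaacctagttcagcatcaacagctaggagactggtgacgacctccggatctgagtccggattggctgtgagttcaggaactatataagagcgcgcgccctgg
The first capitals of the heavy chain stretches are an NF-kB match and the last are a match, on the opposite strand, to the core bound by interferon regulatory factors (IRF; AANNGAAA). In B2m the order is turned: the interferon-stimulated response element (ISRE; GAAA, any 2 bases, then GAAA, which contains the IRF core) comes first and the NF-kB match second. Over their 29 bases the H2-K1 and H2-D1 stretches were identical at 28 positions, and the 1 substitution from H2-K1 to H2-D1 was A18T, counted from the 5′ end. Both strands of the 250 bases upstream were searched in 32851 RefSeq promoters. The IRF core was in 21.3% of them, the ISRE in 2.98%, the NF-kB motif in 7.25% and the gamma-activated sequence (GAS; TTCNNNGAA) in 7.02%. Of the 8 class I genes matched to a promoter, the IRF core and NF-kB motif were in 3 (H2-K1, H2-D1 and B2m), the ISRE was in B2m, and the GAS was in Psmb8. Tap2 and Nlrc5 were not matched. A match describes letters only.

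The class I genes stood lower in the NTG libraries, with B2m nearest to no difference. In the test across all genes (limma-trend on log2 of the deposited value plus 1, adjusted p under 0.05 by Benjamini-Hochberg), 6 of the 10 genes fell and 0 rose. Those that fell were H2-D1, Tap1, Tap2, Tapbp, Psmb9 and Psmb10. Of all 17475 genes tested, 13.5% fell and 12.3% rose. All 10 log2 fold changes were below 0, so 0 rose by any tool or at an unadjusted p under 0.05. With the unadjusted p, 9 were lower in limma and in edgeR. After adjustment edgeR called 7, with Nlrc5 added, and DESeq2 called 9, all but B2m. Of all genes tested, 2317 fell in edgeR and 2275 in DESeq2, against 2364 in limma. The median log2 fold change was -0.53 over the 10 genes and 0.00 over all genes. In 8 of the 10 genes every NTG library was below every vehicle library, which held for 20.0% of all genes, and the exceptions were B2m and Nlrc5. In bulk tissue, fewer cells of a type and less RNA per cell cannot be told apart.

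**Figure D1:**
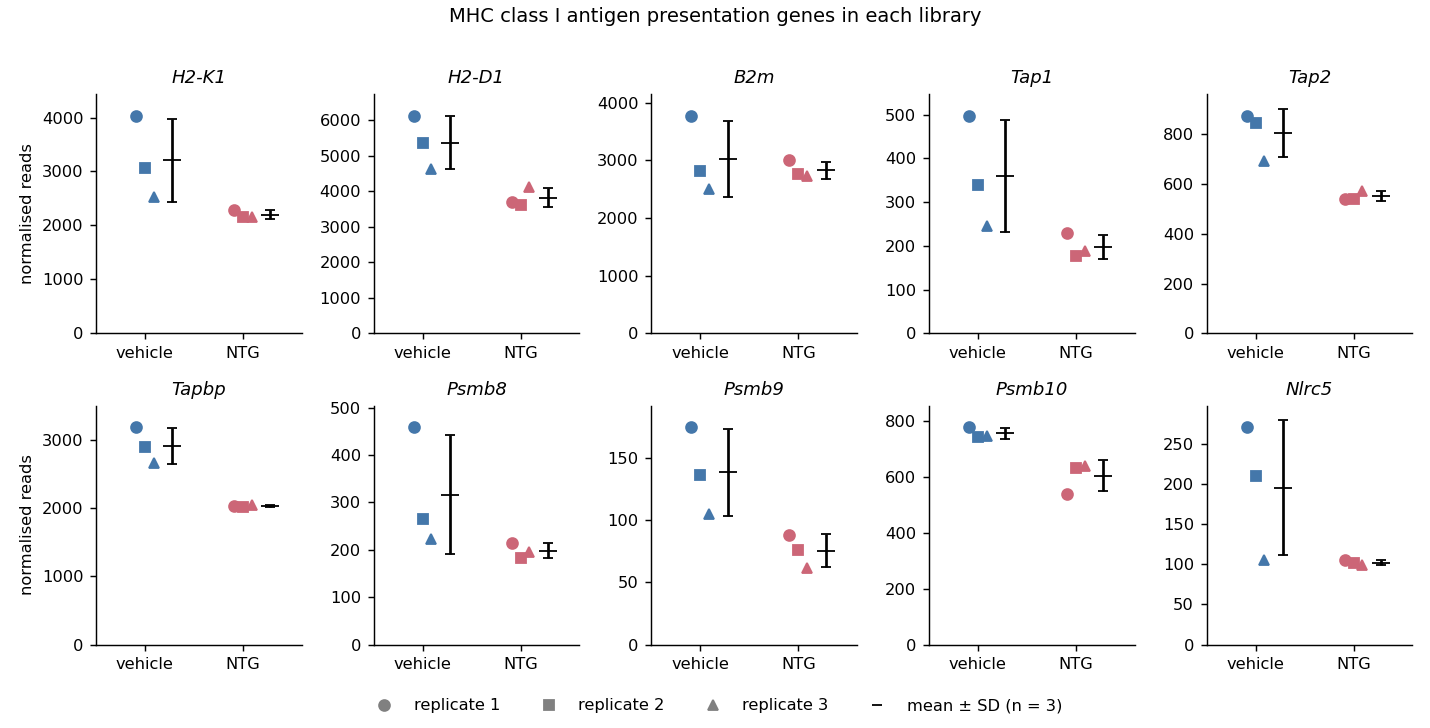
Deposited value (normalised reads, vertical axis from 0) of each class I gene in each library, with 1 panel per gene, vehicle in blue, NTG in red, 1 marker shape per replicate number, and mean ± SD (n = 3) beside the points. Vehicle replicate 1 is the highest of the 6 libraries in all 10 panels, and only in the B2m and Nlrc5 panels do the groups overlap.

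Among the chains of the class I molecule, the heavy chain H2-D1 fell, and the light chain B2m differed by less than the spread between replicates. H2-D1 had 6112, 5341 and 4617 normalised reads in vehicle replicates 1 to 3 and 3702, 3618 and 4127 in NTG replicates 1 to 3. The groups did not overlap, and the means were 5357 ± 748 (SD, n = 3) in vehicle and 3816 ± 273 (SD, n = 3) in NTG, 1.40-fold lower. Its log2 fold change was -0.48 ± 0.09 (SE), with an adjusted p of 0.00222 in limma. H2-K1, the other classical heavy chain, had 4027, 3063 and 2518 in vehicle and 2291, 2147 and 2161 in NTG. No NTG library reached the lowest vehicle library, but vehicle replicate 1 stood far above the other vehicle libraries, and the log2 fold change of -0.52 ± 0.18 (SE) did not pass (adjusted p = 0.100 in limma). It passed without vehicle replicate 1 (-0.34, adjusted p = 0.00281 in limma) and without vehicle replicate 3 (-0.68, adjusted p = 0.000191 in limma). It did not pass in limma without vehicle replicate 2 (adjusted p = 0.185) or NTG replicate 1 (0.232), 2 (0.262) or 3 (0.255).

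B2m had 3770, 2810 and 2498 normalised reads in vehicle and 3001, 2760 and 2728 in NTG. The NTG libraries lay inside the vehicle range, and the log2 fold change was -0.08 ± 0.15 (SE; adjusted p = 0.775 in limma). Without vehicle replicate 1 its sign turned, to 0.094 (adjusted p = 0.346 in limma). Set against B2m in the same library, with both as library-scaled reads per kilobase of transcript (RPKM), H2-K1 was at 0.567, 0.579 and 0.535 of B2m in vehicle and at 0.405, 0.413 and 0.421 in NTG. The ratio of H2-D1 to B2m was 0.732 ± 0.061 (SD, n = 3) in vehicle and 0.553 ± 0.059 (SD, n = 3) in NTG. Both ratios separated the groups completely, with an exact two-sided permutation p of 0.1, the smallest that 3 against 3 libraries allow (0.233 after adjustment over the 7 ratios computed). The transcripts of H2-K1 (56.3%), H2-D1 (55.9%) and B2m (41.2%) differ in GC content. Genes within 1 percentage point of these had median log2 fold changes of -0.17, -0.16 and 0.28. The part of GC content in the ratios was not tested. The H2-K1 ratio varied little within vehicle although both of its genes varied. Of the 150-base windows of H2-D1 transcripts, 1.79% (35 of 1953) were shared with another gene, mostly H2-Q1, and the other 9 genes shared none.

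Of the peptide transporter and the loading factor, all 3 genes fell. Tapbp, which holds the transporter and the heavy chain together, had 3193, 2905 and 2664 normalised reads in vehicle and 2041, 2024 and 2056 in NTG. The NTG values were nearly equal, and the lowest vehicle library stood 29.6% above the highest NTG library. Its log2 fold change was -0.51 ± 0.07 (SE), with an adjusted p of 1.53e-05 in limma, and it passed in each of the 25 alternative analyses. Tap2, 1 of the 2 chains of the transporter, had 873, 843 and 694 in vehicle and 539.5, 541 and 573 in NTG. There was again no overlap, and the log2 fold change was -0.54 ± 0.09 (SE; adjusted p = 0.000231 in limma). Tap1, its partner chain, had 497, 339 and 245 in vehicle and 229, 176 and 187 in NTG. Its groups were separate by a narrow margin of 6.60%, since vehicle replicate 3 was close to NTG replicate 1. The log2 fold change of Tap1 was -0.81 ± 0.23 (SE; adjusted p = 0.0259 in limma), and it did not pass without vehicle replicate 2 (adjusted p = 0.100), NTG replicate 2 (0.106) or NTG replicate 3 (0.103). The RPKM ratio of Tap1 to Tap2 was 0.514 ± 0.133 (SD, n = 3) in vehicle and 0.419 ± 0.067 (SD, n = 3) in NTG, with an exact two-sided permutation p of 0.3 (0.42 adjusted). Tapbp overlaps Gm19412 on the opposite strand, which had 28.9 times less signal.

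Among the interferon-inducible proteasome subunits, Psmb9 and Psmb10 fell and Psmb8 did not pass. Psmb9, which takes the place of Psmb6, had 174, 136 and 105 normalised reads in vehicle and 88.0, 75.7 and 61.6 in NTG. The groups did not overlap, and the means of 138 ± 34.9 (SD, n = 3) and 75.1 ± 13.2 (SD, n = 3) differed by 1.84 times. This was the widest log2 fold change of the 10 genes, -0.86 ± 0.21 (SE; adjusted p = 0.00454 in limma). Psmb10, which takes the place of Psmb7, had 778, 744 and 746 in vehicle and 541, 632 and 639 in NTG. Its vehicle libraries were the closest together of the 10 genes, and its log2 fold change was the smallest of the 6 that fell, -0.33 ± 0.09 (SE; adjusted p = 0.00722 in limma, 0.0625 without NTG replicate 1). Psmb8, which takes the place of Psmb5, had 459, 266 and 224 in vehicle and 215, 183 and 195 in NTG. Vehicle replicates 2 and 3 stood close above NTG and replicate 1 far above, so the log2 fold change of -0.61 ± 0.23 (SE) had an adjusted p of 0.0789 in limma, which became 0.00695 without vehicle replicate 3. Without vehicle replicate 1 the log2 fold change was -0.30 (adjusted p = 0.132 in limma).

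Each inducible subunit was far less abundant than its constitutive counterpart in RPKM, and the share was lower in NTG on average. Psmb10 was at 0.235 ± 0.00904 of Psmb7 (SD, n = 3) in vehicle and at 0.176 ± 0.0135 in NTG, with no overlap (exact two-sided permutation p = 0.1, adjusted 0.233). Transcript GC content differs between Psmb10 (56.5%) and Psmb7 (48.7%), and its part in this ratio was not tested. Psmb9 was at 0.0310 ± 0.00755 of Psmb6 (SD, n = 3) in vehicle and at 0.0190 ± 0.00417 in NTG, where vehicle replicate 3 and NTG replicate 1 touched (exact permutation p = 0.2, adjusted 0.35). Psmb8 was at 0.0546 ± 0.0221 of Psmb5 (SD, n = 3) in vehicle and at 0.0408 ± 0.00374 in NTG (exact permutation p = 0.4, adjusted 0.467). Psmb9 and Tap1, the pair separated by 225 bases, had a ratio of 0.859 ± 0.0855 (SD, n = 3) in vehicle and 0.832 ± 0.111 in NTG (exact permutation p = 0.8).

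Nlrc5 had 270.2, 210.0 and 105 normalised reads in vehicle and 105, 101 and 98.8 in NTG. Vehicle replicate 3 was at the NTG level and the other vehicle libraries were far above, so the groups overlapped by that library alone. The log2 fold change was -0.83 ± 0.29 (SE), with an adjusted p of 0.0562 in limma. It passed without vehicle replicate 3 (-1.22, adjusted p = 3.74e-05 in limma) and in edgeR on the recovered reads (adjusted p = 0.0333). It did not pass without vehicle replicate 1 (-0.54, adjusted p = 0.0948 in limma), without vehicle replicate 2 (-0.72, adjusted p = 0.181) or without any 1 of the NTG replicates.

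Per length, B2m was the most abundant of the 10 genes in vehicle at 170.4 ± 38.6 RPKM (SD, n = 3), followed by H2-D1 at 123 ± 18.0 and H2-K1 at 95.8 ± 23.5. The ranges of B2m and H2-D1 touched in vehicle, as did those of H2-D1 and H2-K1. Next came Tapbp at 48.8 ± 4.73 RPKM (SD, n = 3) and Psmb10 at 27.9 ± 0.912, apart from each other and from their neighbours. Tap2 at 11.3 ± 1.39 RPKM (SD, n = 3) and Psmb8 at 9.41 ± 3.81 overlapped, as did Psmb8 and Tap1 at 5.91 ± 2.13, and Tap1 and Psmb9 at 4.95 ± 1.28. Nlrc5 was the lowest at 1.25 ± 0.542 RPKM (SD, n = 3). In NTG the order was the same, with B2m at 161 ± 10.2 RPKM (SD, n = 3) and Nlrc5 at 0.656 ± 0.0259.

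In 9 of the 10 genes the highest and lowest library stood further apart in vehicle than in NTG, and Psmb10 went the other way (a ratio of 1.05 in vehicle and 1.18 in NTG). The share of all genes with the wider spread in vehicle was not computed. All 10 had their highest value in vehicle replicate 1, against 15.7% of all genes. In 9 of 10 the lowest vehicle library was replicate 3, against 33.5% of all genes, and the exception was Psmb10. The highest vehicle value was 1.05 (Psmb10) to 2.58 (Nlrc5) times the lowest, where the median of 12180 genes with a mean of at least 5 CPM (reads scaled to the library total) was 1.14. In NTG the same ratio was 1.02 (Tapbp) to 1.43 (Psmb9), with a median of 1.12 over those genes. Interferon-stimulated genes outside class I followed the same order in vehicle: the 38 tested summed to 1191, 722 and 537 CPM in vehicle replicates 1 to 3 and to 574, 535 and 539 in NTG, and all 38 were highest in vehicle replicate 1. The 10 class I genes summed to 983, 801 and 695 CPM in vehicle and to 631, 597 and 622 in NTG, so vehicle replicate 3 stood above every NTG library for class I but not for interferon-stimulated genes. The part of this spread in the class I result was not tested. Without vehicle replicate 1, 7 of the 10 fell (13.9% of all genes), the 6 above and H2-K1. Without vehicle replicate 3, 9 fell (12.1% of all genes), all but B2m. With 1 of the remaining libraries left out, 5 fell: without vehicle replicate 2 (10.1% of all genes), NTG replicate 1 (9.33%), NTG replicate 2 (9.27%) or NTG replicate 3 (13.5%).

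**Figure D2:**
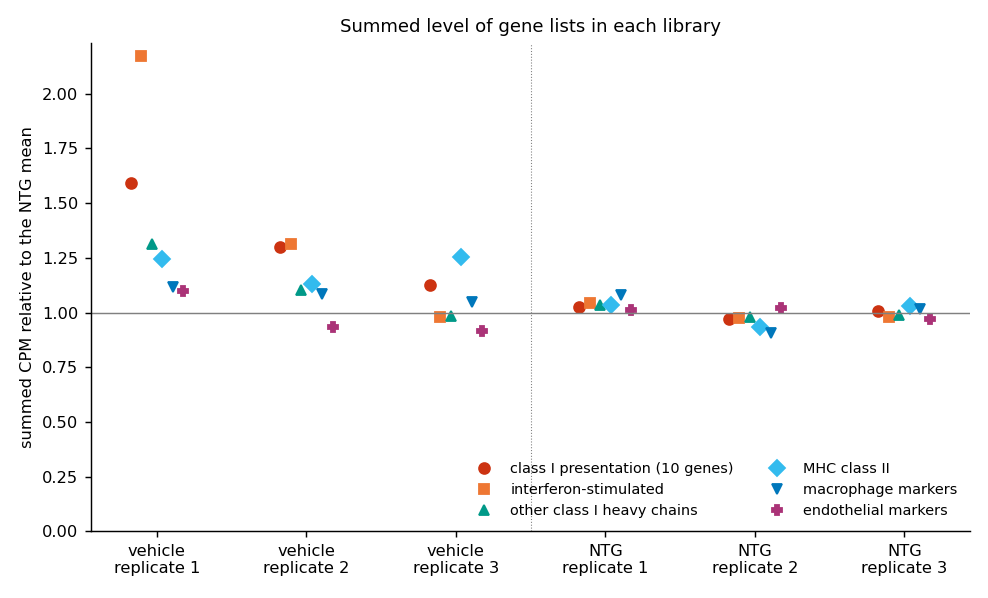
Summed CPM of 6 gene lists in each library, divided by the mean of that sum over the 3 NTG libraries (vertical axis from 0, the grey line at 1). Vehicle replicate 1 stands at 2.17 for interferon-stimulated genes and 1.59 for the 10 class I genes, while vehicle replicate 3 stands at 0.978 and 1.13.

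Fold changes in these data followed the GC content of the transcripts. Across 16278 genes with a known transcript, Spearman's rho between GC percent and log2 fold change was -0.60, a description across genes, which are not independent. Of the class I genes, 9 had a GC content between 52.6% (Nlrc5) and 57.3% (Tap1), above the median of 50.2% over all genes, and B2m stood apart at 41.2%. Within 1 percentage point of the median of the 10 genes, 56.1%, the 1564 genes tested had a median log2 fold change of -0.17. Within 1 percentage point of B2m, 911 genes had a median of 0.28, which was above the -0.08 of B2m. With each library's trend over GC content and length removed, 3 of 10 fell, against 5.25% of all genes: Tapbp at -0.29 (adjusted p = 0.00392 in limma), Tap2 at -0.32 (adjusted p = 0.0196) and Psmb9 at -0.71 (adjusted p = 0.0329). With 1 library also left out, Tapbp passed in all 6 fits, and Tap2 and Psmb9 did not pass without vehicle replicate 1 (adjusted p = 0.0951 and 0.144), vehicle replicate 2 (0.0905 and 0.0974), NTG replicate 2 (0.0984 and 0.0982) or NTG replicate 3 (0.0585 and 0.170). All 10 log2 fold changes stayed below 0, as did 46.6% of all genes, and their median was -0.33 against 0.02 over all genes. B2m moved to -0.31 (adjusted p = 0.319 in limma), next to -0.30 for H2-D1 (adjusted p = 0.116) and -0.33 for H2-K1 (adjusted p = 0.425), so the light chain's value lay between those of the heavy chains on this scale. The part of GC content in the group difference was not tested beyond this.

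**Figure D3:**
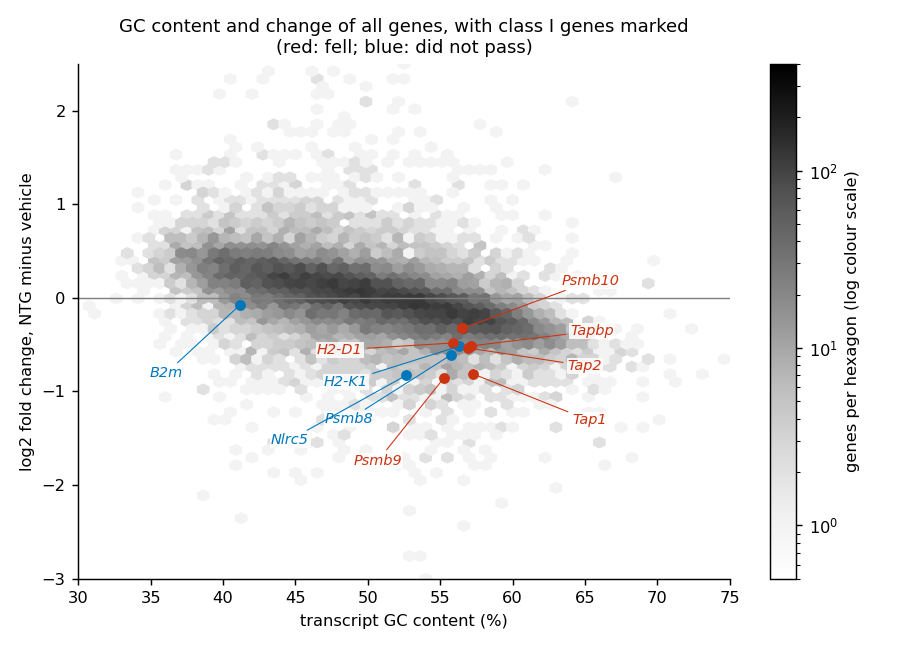
Log2 fold change (NTG minus vehicle, vertical axis) against transcript GC content (percent, horizontal axis) for 16264 genes, shown as grey hexagons shaded by the number of genes on a log scale, with the class I genes as points (red where the gene fell, blue where it did not pass). B2m sits at 41.2% GC and the other 9 class I genes between 52.6% and 57.3%, where the cloud lies below 0.

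**Figure D4:**
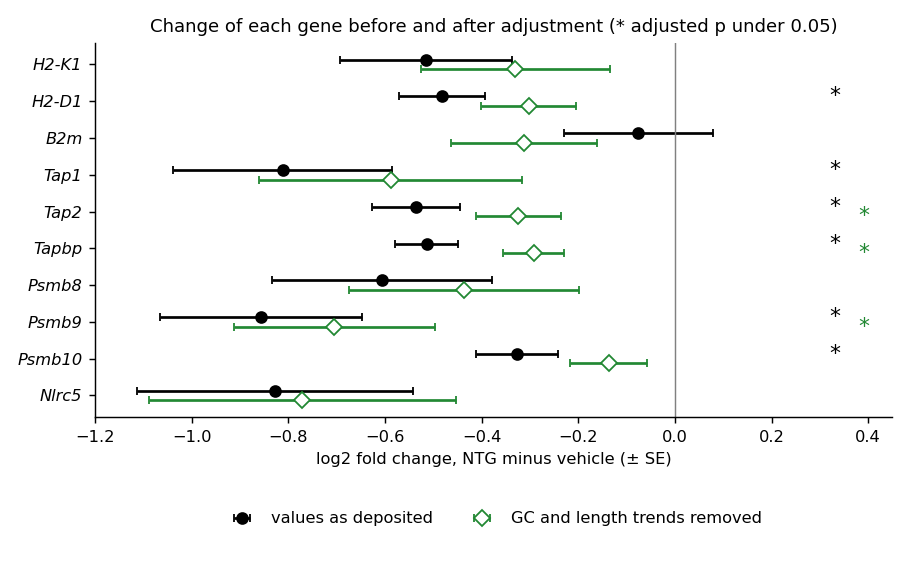
Log2 fold change of each class I gene (horizontal axis, NTG minus vehicle, bars ± SE) from the deposited values (black circles) and after removal of the GC and length trends (green diamonds), with stars for an adjusted p under 0.05. Black stars mark 6 genes and green stars mark 3, and the B2m diamond moves to -0.31.

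The rest of the 1.35 Mb of chromosome 17 also stood lower. Of the 76 other genes tested there, 27 fell (35.5%) and 1 rose, with a median log2 fold change of -0.20 and a median GC content of 57.5%. After removal of the GC and length trends 1 fell and 2 rose. Vehicle replicate 1 was the highest library for 20 of these 76 genes, against all 7 of the class I genes in the interval.

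Other genes of the class I pathway moved in both directions. Of 15 other class I heavy chains tested, 3 fell and 1 rose, with a median log2 fold change of 0.13. Those that fell were H2-Q4 (-0.72, adjusted p = 0.0234 in limma), H2-Q6 (-1.10, adjusted p = 0.000646) and H2-Q7 (-1.02, adjusted p = 0.00243), non-classical heavy chains whose similar sequences can make read assignment uncertain. Mr1, which presents microbial vitamin metabolites, rose (0.57, adjusted p = 0.00605 in limma). After removal of the GC and length trends H2-Q6 and H2-Q7 passed, and H2-Q4 (adjusted p = 0.166) and Mr1 (adjusted p = 0.0819) did not. Of 9 other loading and trimming factors of the endoplasmic reticulum, 5 rose (median 0.20), among them the chaperones Canx (0.30, adjusted p = 0.000163 in limma) and Hspa5 (0.28, adjusted p = 0.000955) and the oxidase Ero1a (0.35, adjusted p = 0.00564). After removal of the GC and length trends 0 of the 9 passed in limma, and 2 were higher at an unadjusted p under 0.05.

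Of 8 constitutive proteasome subunits, activators and assembly factors, 3 fell and 1 rose (median -0.07). After removal of the GC and length trends 0 passed in limma, where 2 were lower and 1 higher at an unadjusted p under 0.05. The catalytic subunit Psmb5 fell by 0.26 on the log2 scale (adjusted p = 0.00229 in limma), the activator subunit Psme1 by 0.48 (adjusted p = 0.00392), and the activator Psme4 rose by 0.34 (adjusted p = 0.00066). Of 12 transcriptional regulators of class I genes, Creb1 rose (0.38, adjusted p = 0.00181 in limma) and the NF-kB subunit Rela fell (-0.23, adjusted p = 0.0354), with a list median of -0.08. With the GC and length trends removed, Rela stood at 0.053 and Creb1 at 0.069 (adjusted p = 0.657 in limma). A list of 9 genes held interferon receptors, their kinases and the transcription factors Stat2 and Irf9, with a median of -0.01. The interferon gamma receptor chain Ifngr1 (0.28, adjusted p = 0.0276 in limma) and the kinase Jak1 (0.17, adjusted p = 0.015) rose. Neither passed after removal of the GC and length trends (adjusted p = 0.153 and 0.293 in limma). Stat2 (-0.59, adjusted p = 0.143 in limma) and Irf9 (-0.67, adjusted p = 0.263) were the lowest of the list and did not pass. These 2 were named after their values were seen. Of the 9, DESeq2 called 1 lower, and limma-voom and limma without its robust option called 2.

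Of the 38 interferon-stimulated genes, 5 fell in limma and in edgeR, a share near that of all genes, although the list median was -0.46. DESeq2 called 11 lower, limma-voom 9 and limma without its robust option 13. The ubiquitin-like modifier Isg15 (-1.30, adjusted p = 0.0139 in limma), the mitochondrial protein gene Ifi27 (-0.33, adjusted p = 0.0171) and the RNA sensor Dhx58 (-0.83, adjusted p = 0.0182) had the smallest p. After removal of the GC and length trends these 3 did not pass (adjusted p = 0.0774, 0.153 and 0.0693 in limma). The list median was then -0.65, further from 0 than before, against -0.33 for the 10 class I genes. The 2 of the list that passed then were Ifi44 (-1.59, adjusted p = 0.0214) and Irgm1 (-0.58, adjusted p = 0.0265), which were named after their values were seen, and Irgm1 had not passed before. Of 8 genes of MHC class II presentation, which serves CD4 T cells, 4 fell (median -0.34), with Cd74, the invariant chain, at -0.46 (adjusted p = 9.19e-05 in limma), H2-Ab1 at -0.40 (adjusted p = 0.000529) and H2-DMa at -0.38 (adjusted p = 0.00757). Cd74 also passed with the GC and length trends removed (-0.26, adjusted p = 0.00747 in limma), and H2-Ab1 (adjusted p = 0.0855) and H2-DMa (adjusted p = 0.159) did not. Ctss, named after its values were seen, passed then (-0.51, adjusted p = 0.00931 in limma) and had not passed before (adjusted p = 0.0603). The class II list was highest in vehicle replicate 1 for 3 of 8 genes, and its sum of 363, 330 and 366 CPM in vehicle and 302, 273 and 301 in NTG did not share the order of the class I genes in vehicle.

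Markers of cells that carry much class I or class II are given beside these results, and their part in them was not tested. Of 14 macrophage and monocyte markers, 3 fell and 2 rose (summed 209 to 223 CPM in vehicle and 181 to 215 in NTG): the complement genes C1qc (-0.82, adjusted p = 1.45e-05 in limma), C1qa (-0.55, adjusted p = 0.00068) and C1qb (-0.49, adjusted p = 0.00109) fell. The monocyte receptor gene Ccr2 rose (1.09, adjusted p = 0.00279 in limma), as did Lyz2. Once GC and length trends were taken out, C1qc (-0.60, adjusted p = 0.000414 in limma) and Ccr2 (0.79, adjusted p = 0.0471) passed, and C1qa (-0.26, adjusted p = 0.114), C1qb (-0.27, adjusted p = 0.0963) and Lyz2 (0.30, adjusted p = 0.157) did not. Of 10 endothelial markers 2 fell and 2 rose (202 to 242 CPM in vehicle, 214 to 225 in NTG), with Vwf at -0.29 (adjusted p = 0.00857 in limma), Tek at 0.47 (adjusted p = 0.0161) and Cldn5 at -0.32 (adjusted p = 0.0205). Vwf (adjusted p = 0.450), Tek (0.113) and Cldn5 (0.958) did not pass in limma after removal of the GC and length trends. Of 4 T and natural killer cell markers tested, 0 passed in limma, edgeR or DESeq2 or at an unadjusted p under 0.05 (3.72 to 4.84 CPM in vehicle, 4.12 to 5.20 in NTG). The 13 others of that list, Cd3e and Cd8a among them, were absent by symbol from the deposited genes and could not be tested. Of 4 B cell markers tested, 0 passed by the same tests (15.5 to 17.5 CPM in vehicle, 14.6 to 22.8 in NTG). Of 8 dendritic cell markers (44.2 to 54.3 CPM in vehicle, 51.4 to 57.0 in NTG) Clec9a rose (1.80, adjusted p = 0.011 in limma).

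All 10 markers of sensory neurons, the cells that define the labelled tissue, were measured, at 6507 to 6883 CPM summed per library. Of these, Scn9a (0.43, adjusted p = 1.25e-05 in limma) and Ntrk2 (0.19, adjusted p = 0.0115) rose. After removal of the GC and length trends 3 of the 10 rose, Scn9a among them (0.18, adjusted p = 0.00515 in limma), and Ntrk2 did not pass (adjusted p = 0.180). Of 8 satellite glia markers 3 fell and 1 rose, Sox10 falling by 0.48 on the log2 scale (adjusted p = 9.2e-06 in limma), Apoe by 0.28 (adjusted p = 7.17e-05) and Fabp7 by 0.33 (adjusted p = 0.00267). With the GC and length trends removed, Fabp7 passed (-0.54, adjusted p = 5.36e-05 in limma), and Sox10 (-0.11, adjusted p = 0.158) and Apoe (-0.0060, adjusted p = 0.928) did not. Of 11 skeletal muscle markers 6 fell (4 after removal of the GC and length trends), with a list median of -1.17. Among them were the myosin Myh4 (-2.75, adjusted p = 0.000804 in limma), the calcium pump Atp2a1 (-1.72, adjusted p = 0.00173) and the creatine kinase Ckm (-1.69, adjusted p = 0.00485). Without Pvalb, which carries most of the sum and did not pass (0.04), the other 10 summed to 224, 288 and 395 normalised reads in vehicle and 128, 134 and 119 in NTG. Of 5 red cell markers Hba-a2 fell (-1.59, adjusted p = 0.0385 in limma), and not after removal of the GC and length trends (adjusted p = 0.115). The part of muscle and blood RNA in the class I result was not tested. The libraries held between 18813027 and 23774244 reads.

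Across the 6 libraries, 8 of the 10 genes had a Pearson r of 0.94 to 0.99 with the mean profile of the other class I genes, a description over 6 points that share the group difference. The exceptions were Psmb10 (0.74) and B2m (0.62). Of 14447 other genes, those most like the mean class I profile by Pearson r were Bst2 (0.998), which tethers budding virions, the non-classical heavy chain gene H2-Q7 (0.998), Parp10 (0.998), Psme1 (0.995), Isg15 (0.995) and Rbfa (0.994). Bst2 had 842, 531 and 355 normalised reads in vehicle and 249, 225 and 224 in NTG (log2 fold change -1.22, adjusted p = 0.0517 in limma). Parp10, an ADP-ribosyltransferase, had 427, 330.4 and 279.8 in vehicle and 230.5, 231 and 229.8 in NTG and fell (-0.56, adjusted p = 0.00418 in limma). In both genes vehicle stood in the order replicate 1, 2, 3 above closely grouped NTG libraries, the order of the mean class I profile. Both genes were picked by likeness to that profile over these same libraries, so the shared order follows from the choice.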

How the data were processed

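Total RNA was extracted from tissue with TRIzol, and polyadenylated, strand-specific libraries were sequenced in pairs (Illumina), per the labels' protocols. FastQC, HISAT2 and GRCm38 are named, per the submitters' processing notes. How reads were counted and scaled, with which annotation and strand setting, was not given in the sources used here. The deposited signal is gene counts divided by a size factor. Dividing by what 1 read is worth gave whole reads for 100% of values (tolerance 0.01), from which CPM, RPKM and the count-based alternatives were made. 3 reads equal 0.126 to 0.159 CPM, which covers counting error only. Groups and replicate numbers came from the sample titles. Genes reaching a value of 1 in 3 or more libraries were tested two-sided with limma 3.58.1 (limma-trend, robust) on log2(value + 1) in R 4.3.3; fold changes are on this scale and can understate those of low genes. The alternatives included edgeR 4.0.16 and DESeq2 1.42.0. GC content and length of transcripts came from GENCODE for 16327 genes (93.2%), and their trends were fitted per library with mgcv 1.9.3. The method was tested on simulated data. Named genes were the 10 class I genes, up to 3 called genes per list by p (or the 2 most abundant), and the 6 most alike in profile; the remaining list members are counted. The class I genes and all lists were chosen with earlier results of these data known. The result of 1 marker gene is not reported here.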

Additional observations from a re-analysis of the deposited data

How the results depend on the processing

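Pseudocounts, filters and scalings left 6 class I genes called, edgeR called 7, and DESeq2, limma-voom and limma without the robust option called 9. Of all genes tested, 2226 fell in limma-voom and 2370 in limma without the robust option, against 2364 in the main test. Removal of the GC and length trends lowered the genes called from 4512 to 1530 and the class I genes from 6 to 3. Leaving out 1 library gave 2946 (without NTG replicate 2) to 4678 genes and 5 to 9 class I genes. With trend removal as well, added after seeing the data, the genes called were 1567, 946 and 1553 without vehicle replicates 1, 2 and 3 and 1102, 730 and 1086 without NTG replicates 1, 2 and 3, and the class I genes were 2, 1, 8, 3, 1 and 1. Replicate numbers do not pair the libraries (same-number correlations of deviations 0.0041, -0.033 and -0.025). The fit with the replicate block called 5254 genes and 8 class I genes, with H2-K1, Psmb8 and Nlrc5 added and H2-D1 not called (adjusted p = 0.111 in limma), and with trend removal 2123 and 6. Signs turned in genes that were not called and in Rela. After trend removal, with or without the replicate block, this was so for Cd79a (0.077), Rbfa (0.045) and Rela (0.053). Leaving out 1 library gave a range that crossed 0 for B2m (-0.20 to 0.094), Cd79a (-0.25 to 0.076), Ighm (-0.20 to 0.12), Lck (-0.0027 to 0.31) and Zap70 (-0.15 to 0.58). The cause was not tested. The lowest count of a class I gene in a library was 71 reads, and the part of depth in the class I result was not tested.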
